A study of Mus musculus with 7 samples.

Results

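The 10 genes described here encode proteins of the milk fat globule membrane and of the coat of the lipid droplet inside the secretory cell: *Btn1a1*, *Xdh*, *Mfge8*, *Muc1*, *Muc15*, *Bsg*, *Plin2*, *Plin3*, *Cidea* and *Cidec*. They were chosen by name from what their proteins are known to do, with earlier results of these data known. All 10 of the 10 were found among the 37310 genes of the count table and were among the 17175 genes tested. RNA was sequenced from whole mammary glands of C57BL/6 mice at lactation day 1 (L1), in 3 wild type (WT) libraries and 4 libraries labelled *Tardbp* KO. The WT mice were *Tardbp* wt/wt and carried WAP-Cre, and the KO mice were *Tardbp* fl/fl with WAP-Cre, so the Cre transgene was present in both groups. Cre is driven by the whey acidic protein promoter, which is active in luminal epithelial cells from the middle of pregnancy, and it removes exons 2 and 3 of *Tardbp*, the gene of the RNA-binding protein TDP-43. The glands also hold cells in which this promoter is silent, and in such tissue fewer cells of a type and less RNA per cell cannot be told apart. The age of the mice is not given in the sources used here, and the numbers of libraries per group match the numbers of mice that the study names for this comparison, although the labels do not tie a library to a mouse.

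Milk fat leaves the luminal epithelial cell as a droplet of triacylglycerol wrapped in the apical plasma membrane. Butyrophilin, encoded by *Btn1a1*, and xanthine oxidoreductase, encoded by *Xdh*, are the major proteins that link that membrane to the droplet, and perilipin 2, encoded by *Plin2*, covers the droplet itself. The droplet grows in the cytoplasm before release by fusion and by local synthesis of lipid, and proteins of the CIDE family promote transfer of lipid between droplets that touch.

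The file's total counts were 36007737 to 42811337 per library, and the 10 genes together took 0.865 to 1.48% of them. Levels are given as CPM, counts scaled to a common library size with factors from the trimmed mean of M-values (TMM), and log2 fold changes are libraries labelled KO over WT with their standard error (SE). *Tardbp* itself had 159 to 223 CPM in WT and 154 to 214 CPM in the libraries labelled KO (log2 fold change 0.011), so the deletion is not seen in these values. The file gives 1 count per gene, and exons 2 and 3 were not analysed on their own. The groups differed in the make-up of the libraries. The 7 milk protein genes took 26.3 to 34.0% of counts in WT and 12.7 to 21.8% in the libraries labelled KO. The luminal markers *Krt8*, *Krt18*, *Epcam* and *Cdh1* took 0.0836 to 0.157% in WT and 0.175 to 0.244% in the libraries labelled KO. Of the 9 luminal markers listed, 7 had a log2 fold change above 0, these 4 among them, and 2 below. *Elf5* was at −0.59, with all libraries labelled KO below WT, and *Ehf* was at −0.24 with overlap. The 10 lymphocyte markers summed to 39.98 to 56.9 CPM in WT and to 420, 66.7, 572 and 127 CPM in KO 1 to KO 4, with every marker detected and all 10 above 0 in log2 fold change.

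TDP-43 binds RNA rich in UG dinucleotides, so the longest annotated transcript of each member was searched for consecutive UG on the sense strand, which read TG in DNA, and a run was counted from 3 UG up. Of the 10 members, 8 held such a run, as did 71.5% of the longest transcripts of the 15112 tested genes with one. Runs of 8 or more UG were in *Btn1a1*, *Xdh* and *Muc15* and in no other member, and in all 3 genes the long runs lay in the 3′ UTR. The stretches below are shown because they are the long UG runs of the members. Each is printed 5′ to 3′ in the sense of the mRNA from the transcripts of GENCODE vM1 on assembly NCBIM37, with the UG run in capitals.
*Btn1a1*, transcript positions 2814 to 2843: ccaggTGTGTGTGTGTGTGTGTGTGtcttc
*Btn1a1*, 5′ edge of the longest run, positions 2901 to 2930: gggggttcTGTGTGTGTGTGTGTGTGTGTG
*Muc15*, 5′ edge of the longest run, positions 2569 to 2598: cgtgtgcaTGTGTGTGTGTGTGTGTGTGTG
*Xdh*, transcript positions 4502 to 4531: ggaatagTGTGTGTGTGTGTGTGggggggg
The *Btn1a1* run of 10 UG lies at chr13:23549446-23549465 on the minus strand, and the run of 19 UG next to it at chr13:23549338-23549375, both in exon 8, the last exon. The *Muc15* run of 13 UG lies at chr2:110578840-110578865 on the plus strand in exon 4, its last. The *Xdh* run of 8 UG lies at chr17:74233311-74233326 on the minus strand in exon 36, its last. A run as long as these was in 1.69% of all longest transcripts for *Btn1a1*, 2.94% for *Muc15* and 4.40% for *Xdh*.

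**Figure D1:**
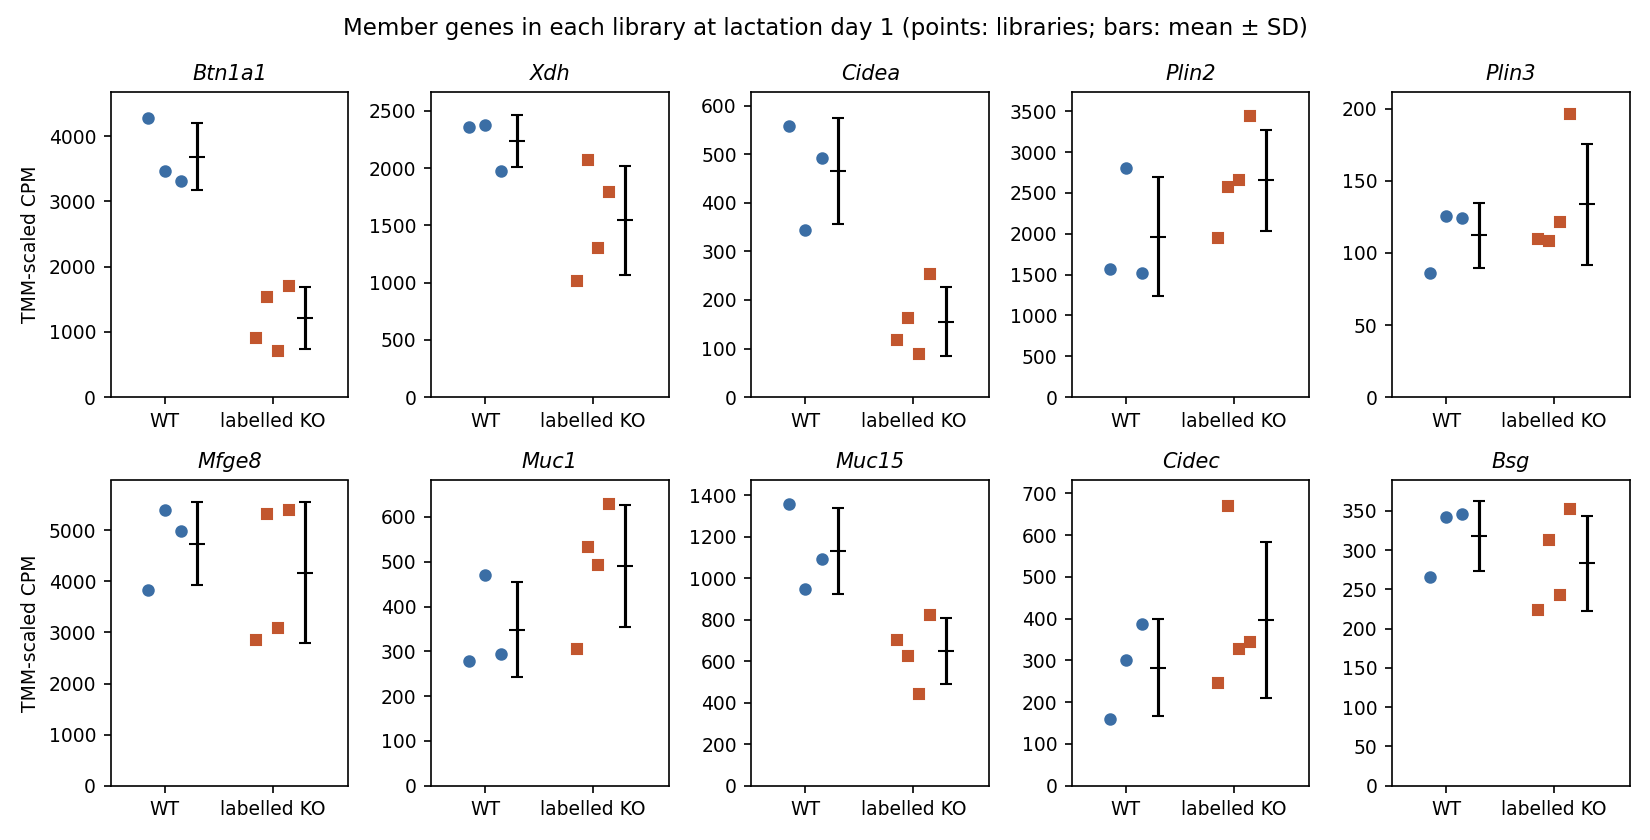
TMM-scaled CPM (y axis, from 0, its own scale in each panel) of the 10 member genes in the 3 WT libraries (circles) and the 4 libraries labelled KO (squares), with mean ± SD beside the points. In *Btn1a1*, *Cidea* and *Muc15* every library labelled KO lies below every WT library, and the groups overlap in the other 7 panels.

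Of the 10 members, *Btn1a1* and *Cidea* had 0.329 and 0.335 times the WT level in the libraries labelled KO by the fitted fold change, *Muc15* had 0.573 times and *Xdh* 0.691 times that level. The other 6 had between 0.880 and 1.41 times the WT level. The groups were apart for 3 of the 10 members, with the libraries labelled KO below, and for 0 with them above, against 9.62% and 9.07% of all genes tested. An unadjusted p under 0.05 from edgeR's quasi-likelihood test was reached by the same 3 members, *Btn1a1*, *Cidea* and *Muc15*, all lower, against 10.7% of genes lower at that limit. The study's limits ask for an adjusted p below 0.01 together with a log2 fold change beyond 1 in size. By this test 0 of the 10 passed them, and so did 0% of all genes. By the exact test in edgeR 2 of the 10 passed, *Btn1a1* and *Cidea*, against 1.44% of genes that passed as lower, and in DESeq2 it was the same 2, against 1.64%. The median log2 fold change of the members was −0.18, beside 0.050 for all genes tested, and 6 of the 10 were below 0, as were 45.7% of all genes.

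*Btn1a1* (ENSMUSG00000000706, chr13:23548861-23557770, minus strand) encodes butyrophilin, the transmembrane protein that is most characteristic of the globule membrane. It had 4278, 3467 and 3315 CPM in WT 1 to WT 3, and 904, 1530.4, 710.3 and 1705 CPM in KO 1 to KO 4. The highest library labelled KO was thus below the lowest WT library by a wide margin, and KO 1 and KO 3 were the lowest of all. The log2 fold change was −1.60 (SE 0.335, adjusted p = 0.0753 over all genes by edgeR's quasi-likelihood test). The adjusted p was 0.000163 by edgeR's exact test and 7.8e-05 by DESeq2. By the exact permutation test of log2 CPM, 2-sided, p was 0.0286, the smallest that the 35 splits of 7 libraries can give. Ordered by fold change from the most lowered, it was at place 181 of the 17175 genes tested. The study also reported *Btn1a1* mRNA by qRT-PCR and butyrophilin by western blot as lower in KO at L1.

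*Xdh* (ENSMUSG00000024066, chr17:74233248-74299522, minus strand) encodes xanthine oxidoreductase, a purine-degrading enzyme that also has a structural part in the globule membrane, where it associates with butyrophilin. It had 2358, 2378 and 1971 CPM in WT and 1015, 2073, 1302 and 1788 CPM in KO 1 to KO 4. KO 2 was above WT 3, so the groups overlapped, and KO 1 and KO 3 were again the lowest. The log2 fold change was −0.53 (SE 0.278, adjusted p = 0.311 by the quasi-likelihood test, exact permutation p = 0.143). By qRT-PCR the study reported *Xdh* mRNA as significantly lower in KO at L1, and by western blot its protein as reduced. In counts within each library, *Btn1a1* exceeded *Xdh* by 1.81, 1.46 and 1.68 times in WT, and was below it in every library labelled KO, at 0.891, 0.738, 0.546 and 0.954 times. That ratio differed by −1.10 on the log2 scale between the groups (2-sided exact permutation p = 0.0286, the smallest possible), and a ratio within a library does not depend on the scaling between libraries. The ratio of *Btn1a1* to 80.1% of all other genes tested was likewise lower in all libraries labelled KO, so the separation is not particular to *Xdh*.

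*Cidea* (ENSMUSG00000024526, chr18:67503218-67527448, plus strand) encodes a CIDE protein that promotes droplet fusion and is expressed in brown fat and in the lactating gland. It had 558, 344 and 491 CPM in WT and 118, 163, 88.9 and 253 CPM in KO 1 to KO 4, with no overlap between the groups. The log2 fold change was −1.58 (SE 0.342, adjusted p = 0.0793 by the quasi-likelihood test). The adjusted p was 0.000897 by the exact test of edgeR and 0.00069 by DESeq2, and the exact permutation p of log2 CPM was 0.0571. The study itself reported *Cidea* mRNA and protein as comparable between the genotypes, and its figure legend names L1 among the stages of that qRT-PCR. Its supplement also lists *Cidea* among the lipid genes that it took from the differentially expressed genes of its L1 RNA-seq, without a direction. Markers of brown fat summed to 12.5 to 31.3 CPM in WT and 13.7 to 30.8 CPM in the libraries labelled KO, so their sums overlapped. *Ucp1*, the defining gene, was at 1.95 ± 3.20 (SD, n = 3) and 2.35 ± 1.97 CPM (SD, n = 4). Of the 6 markers tested, 5 were above 0 in log2 fold change. The other, *Cox7a1*, was like *Cidea* lower in all libraries labelled KO, at −0.89 (adjusted p = 0.171 by the quasi-likelihood test). The part of brown fat cells in the level of *Cidea* was not tested. The only annotated overlap of *Cidea* with another gene is 20 bases of its 1164 exon bases, on the opposite strand.

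*Cidec* (ENSMUSG00000030278, chr6:113374628-113385754, minus strand), the family member that is abundant in white fat, did not have this pattern. It had 159, 302 and 387 CPM in WT and 247, 670.2, 328 and 343 CPM in KO 1 to KO 4, and the groups overlapped with a log2 fold change of 0.49 (SE 0.392, adjusted p = 0.518). It was 0.11 without KO 2, 0.20 without WT 1 and 0.78 without WT 3. Its highest library, KO 2, also had the highest sum of white adipocyte markers, 5398 CPM, against 2676 to 3736 CPM in WT and 2748 to 3678 CPM in the other libraries labelled KO. The part of fat cells in the level of *Cidec* was not tested. *Cideb*, the family member known from liver, had 1.01 ± 0.466 CPM in WT (SD, n = 3) and 0.820 ± 0.384 CPM in the libraries labelled KO (SD, n = 4), with a log2 fold change of −0.28 (adjusted p = 0.792) that was 0.14 with library size only.

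*Plin2* (ENSMUSG00000028494, chr4:86294290-86315964, minus strand) had 1571, 2807 and 1515 CPM in WT and 1947, 2567, 2655 and 3447 CPM in KO 1 to KO 4. WT 2 was above 3 of the 4 libraries labelled KO, and the log2 fold change was 0.43 (SE 0.311, adjusted p = 0.466). It was 0.78 without WT 2, and 0.27 and 0.28 without KO 4 and WT 3. *Plin3* (ENSMUSG00000024197, chr17:56418385-56429934, minus strand), a perilipin that moves between cytosol and small droplets, had 86.0, 126 and 124 CPM in WT. In KO 1 to KO 4 it had 109.6, 108, 121 and 196 CPM, with a log2 fold change of 0.25 (SE 0.248, adjusted p = 0.602). It was −0.0081 without KO 4 and 0.095 without WT 1. A copy of *Plin2* annotated as *Gm12551* lies on the same chromosome with 91.4% identity over 1882 of the 1888 bases of the transcript and took 10 to 65 counts per library, against at least 41769 for *Plin2*.

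Of the other perilipins, *Plin1* and *Plin4*, which coat the droplets of fat cells, had log2 fold changes of 0.39 and 0.40 with overlapping groups (adjusted p = 0.372 and 0.533), and of −0.16 and −0.074 when scaled by luminal genes. *Plin5*, known from tissues that oxidise fatty acids, was low throughout, at 1.62, 2.89 and 2.56 CPM in WT and at 5.39, 3.47, 3.73 and 4.77 CPM in KO 1 to KO 4. Its libraries labelled KO lay above WT, with a log2 fold change of 0.88 (SE 0.298, adjusted p = 0.146) that was 0.38 with luminal scaling.

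*Mfge8* (ENSMUSG00000030605, chr7:86278655-86293946, minus strand) encodes lactadherin, a secreted protein that binds phosphatidylserine on the globule surface. It had 3823, 5391 and 4994 CPM in WT, and KO 2 and KO 4 had 5315 and 5406 CPM while KO 1 and KO 3 had 2859 and 3085 CPM. KO 1 and KO 3 thus lay below the WT range, KO 2 within it and KO 4 just above it, with a log2 fold change of −0.18 (SE 0.324, adjusted p = 0.787) that ranged from −0.36 without KO 4 to −0.041 without KO 1. *Bsg* (ENSMUSG00000023175, chr10:79167103-79174724, plus strand), which encodes basigin, a chaperone of monocarboxylate transporters, was also lowest in KO 1 and KO 3. It had 266, 342 and 346 CPM in WT and 224, 313, 243 and 353 CPM in KO 1 to KO 4, with a log2 fold change of −0.17 (SE 0.205, adjusted p = 0.682) that ranged from −0.31 without KO 4 to −0.071 without KO 1.

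Of the mucins of the globule, *Muc15* (ENSMUSG00000050808, chr2:110561497-110579684, plus strand), a heavily glycosylated membrane protein, was lower in the libraries labelled KO and *Muc1* overlapped with WT. *Muc15* had 1356, 948 and 1092 CPM in WT and 705, 624, 444 and 822 CPM in KO 1 to KO 4. The groups did not overlap, and the log2 fold change was −0.80 (SE 0.246, adjusted p = 0.125 by the quasi-likelihood test). The adjusted p was 0.0306 by edgeR's exact test and 0.01998 by DESeq2, and the fold change was below the study's limit in each. *Muc1* (ENSMUSG00000042784, chr3:89032979-89037303, plus strand), the apical mucin of glandular epithelia, had 279, 470.2 and 295 CPM in WT and 305, 534, 492 and 629.6 CPM in the libraries labelled KO. Its groups overlapped, with a log2 fold change of 0.49 (SE 0.286, adjusted p = 0.360) that ranged from 0.33 without KO 4 to 0.77 without WT 2. The ratio of *Muc1* to *Muc15* counts within a library differed by 1.31 on the log2 scale, and its groups overlapped. Of the *Muc15* exon bases, 61 of 3569 lie under *Ano3* on the opposite strand, and a read that touched both was left out by the counter.

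**Figure D2:**
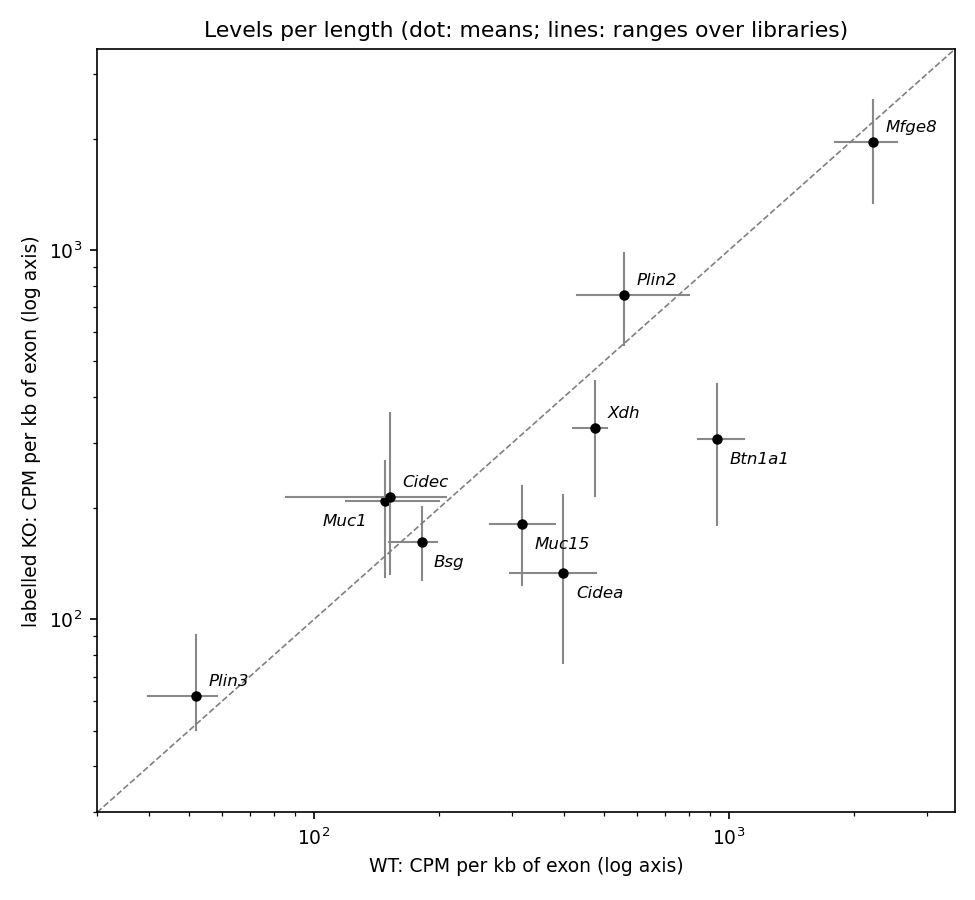
Mean CPM per kb of exon in WT (x axis) and in the libraries labelled KO (y axis), both on log axes, with lines for the range over the libraries and a dashed line of equal level. *Btn1a1*, *Cidea*, *Muc15* and *Xdh* lie below the dashed line by the greatest distances, and the other 6 genes are close to it or above.

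Levels of different genes can be compared only per length, and on the scale of CPM per kb of exon *Mfge8* was the highest member in WT, at 2229 ± 384 (SD, n = 3). *Btn1a1* followed at 937 ± 132, and the ranges of both over the libraries were apart from those of the genes next to them. *Plin2* (559 ± 208), *Xdh* (476 ± 48.9) and *Cidea* (399 ± 93.7) came next and neighbours among them overlapped. *Muc15* (317 ± 58.0) overlapped with *Cidea* in range but lay below it in each WT library. *Bsg*, *Cidec* and *Muc1* overlapped between 148 and 182 CPM per kb, and *Plin3* was lowest at 51.9 ± 10.47.

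In the libraries labelled KO the order began with *Mfge8* (1961 ± 651 CPM per kb, SD, n = 4) and *Plin2* (756 ± 175), each apart from the gene after it in every library. *Btn1a1*, at place 2 in WT, was at place 4 with 308 ± 122 CPM per kb, overlapping with *Xdh* at 329 ± 101. *Cidea* went from place 5 to place 9, at 134 ± 61.5 CPM per kb, above only *Plin3* at 61.9 ± 19.4. *Plin2* exceeded *Btn1a1* in each library labelled KO, whereas *Btn1a1* exceeded *Plin2* in each WT library.

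**Figure D3:**
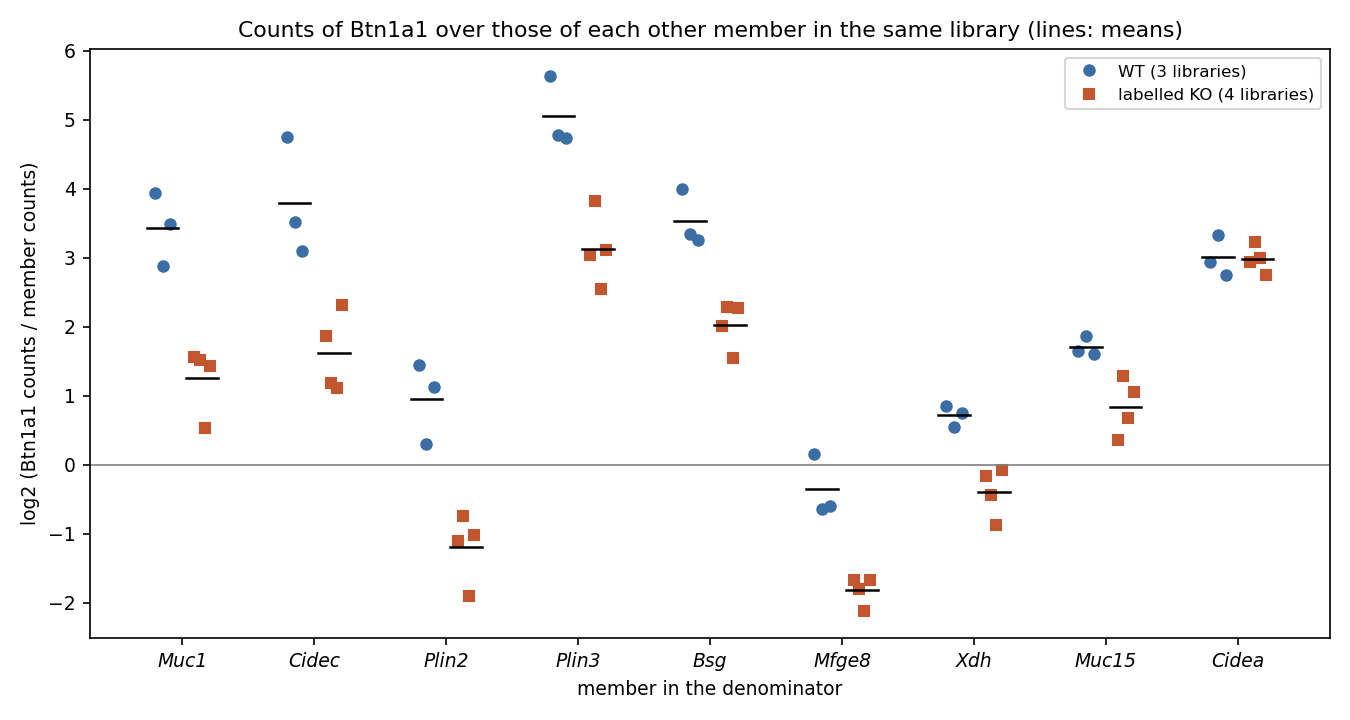
Log2 ratio of the counts of *Btn1a1* to those of each other member within the same library (y axis), for 3 WT libraries (circles) and 4 libraries labelled KO (squares), with lines at the means. The groups are apart for 8 members and coincide for *Cidea*, whose mean ratio differed by −0.028 on the log2 scale.

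The counts of *Btn1a1* were set over those of each of the other 9 members within a library. The ratio to *Cidea* was 7.67, 10.1 and 6.75 in WT and 7.65, 9.40, 7.99 and 6.74 in KO 1 to KO 4. The groups coincided, with a difference of −0.028 on the log2 scale (2-sided exact permutation p = 0.857), although each gene on its own was lower in all libraries labelled KO. The ratio to each of the other 8 members was lower in all libraries labelled KO than in any WT library, with differences from −0.86 for *Muc15* (exact permutation p = 0.0571) to −2.17 for *Muc1* and *Cidec* (exact permutation p = 0.0286). These are 9 tests and the p-values are not adjusted for their number. The same separation was found for the ratio of *Btn1a1* to 80.1% of all other genes tested, so 8 of 9 is near that background and *Cidea* is among the genes without it, and for *Cidea* as the numerator the share was 73.9%. Of all 45 pairs of members, the ratio separated the groups in 20, and 16 of these held *Btn1a1* or *Cidea*. The ratio of *Xdh* to *Plin2* and to *Muc1* also separated the groups, at −1.05 and −1.07 on the log2 scale, as did that of *Xdh* to *Cidea*, at 1.08. No share over all genes was computed with *Xdh* as the numerator or for pairs of genes in general. The separations of *Xdh* and the count of pairs therefore have no background beside them.

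Among all genes tested, the profile of *Btn1a1* over the 7 libraries, taken as log2(CPM + 1) minus its mean, was nearest to that of *Aldoc*, a glycolytic aldolase, with a root mean square difference of 0.162. The next was *Cidea* itself, at 0.204, and the next after it *Slc38a3*, a glutamine transporter, at 0.206. The other members were farther away, from 0.511 for *Muc15* and 0.601 for *Xdh* to 1.22 for *Cidec*. *Aldoc* had 857, 608 and 627 CPM in WT and 174, 288, 181 and 359 CPM in KO 1 to KO 4. For *Xdh* the nearest genes were *Cmtm8*, *Fn3k* and *Gm7658*, with differences of 0.109, 0.118 and 0.119, and among the members the nearest were *Mfge8* at 0.269 and *Bsg* at 0.301. *Xdh* was thus closer in profile to *Mfge8* and *Bsg* than to *Btn1a1*, by a measure that also counts the size of the change. All of these genes, *Btn1a1* included, had their lowest values in KO 1 and KO 3.

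The libraries labelled KO were not alike in these genes. Relative to the WT mean of log2 CPM, the median over the 10 members was −0.58 in KO 1, −0.021 in KO 2, −0.49 in KO 3 and 0.18 in KO 4. *Btn1a1* was at −2.02 and −2.37 in KO 1 and KO 3, and at −1.26 and −1.10 in KO 2 and KO 4. *Xdh* was at −1.13 and −0.77 in KO 1 and KO 3, and at −0.10 and −0.32 in KO 2 and KO 4. KO 1 and KO 3 were also the libraries with the highest sums of lymphocyte markers, 420 and 572 CPM. With the mean log2 CPM of these markers as a covariate, the log2 fold change of *Btn1a1* was −0.93 (adjusted p = 0.596), that of *Cidea* −0.95 (adjusted p = 0.605) and that of *Xdh* −0.028 (adjusted p = 0.985). The sums of these markers were 39.98 to 56.9 CPM in WT and 66.7 to 572 CPM in the libraries labelled KO, without overlap. The covariate thus goes with the group label, and the 2 cannot be fully told apart in this fit.

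**Figure D4:**
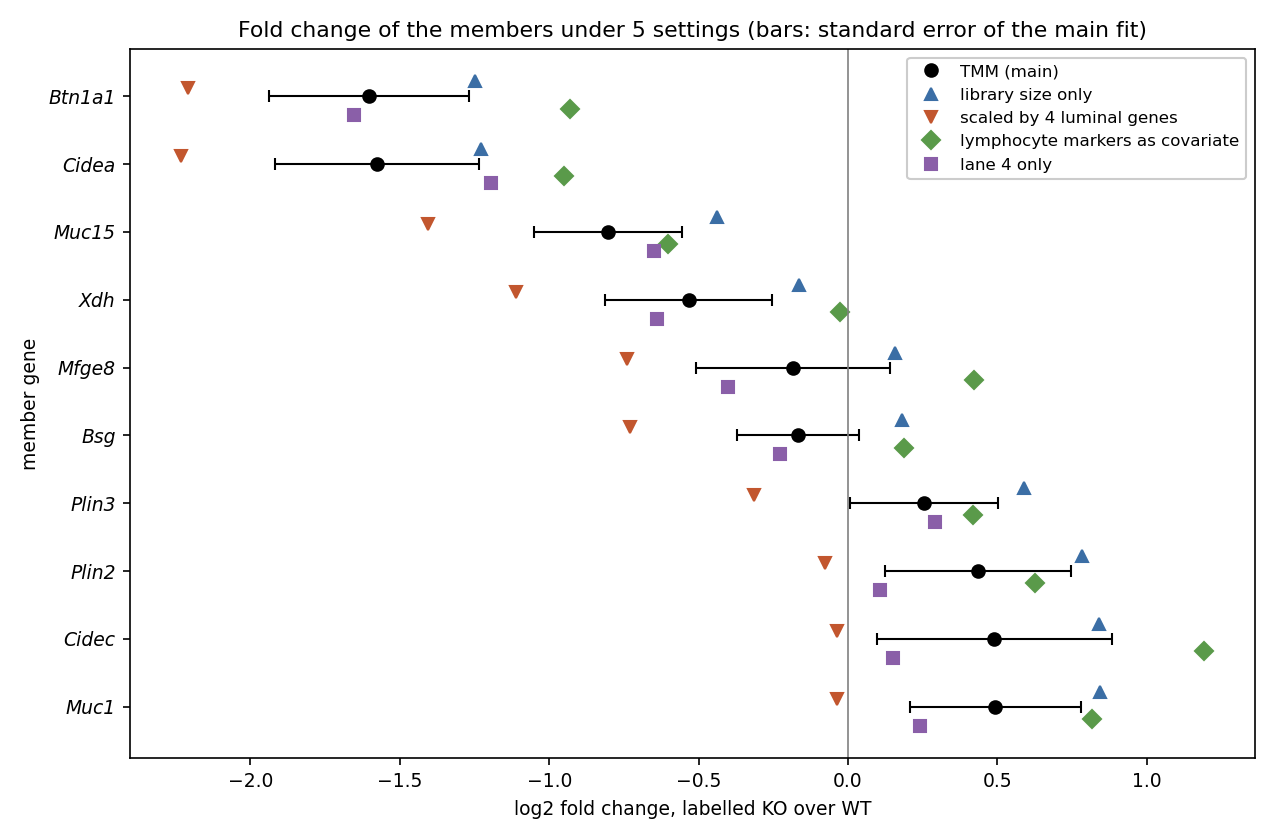
Log2 fold change of each member, libraries labelled KO over WT (x axis), with TMM scaling (black, with SE), with library size only, scaled by 4 luminal genes, with lymphocyte markers as a covariate, and within lane 4 only (1 WT and 2 libraries labelled KO). *Btn1a1*, *Cidea*, *Muc15* and *Xdh* are below 0 in all 5, and the other 6 change sign in at least 1.

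Scaled by library size only, which moves the median of all genes to 0.42, *Btn1a1* was at −1.25, *Cidea* at −1.23, *Muc15* at −0.44 and *Xdh* at −0.16, while *Mfge8* and *Bsg* came out above 0, at 0.16 and 0.18. Scaled by the 4 luminal genes, which moves that median to −0.50, *Btn1a1* was at −2.21 (adjusted p = 0.0255), *Cidea* at −2.23 (0.0263), *Muc15* at −1.41 (0.0354) and *Xdh* at −1.11 (0.0444), all by the quasi-likelihood test. *Plin2*, *Plin3*, *Muc1* and *Cidec* were then at −0.078, −0.31, −0.037 and −0.038. Relative to the median of all genes, *Btn1a1* and *Cidea* were at −1.65 and −1.63 with TMM, at −1.67 and −1.65 with library size only, and at −1.71 and −1.73 with luminal scaling. Within lane 4 of the sequencer, which held WT 2, KO 3 and KO 4, *Btn1a1* was at −1.65, *Cidea* at −1.19, *Muc15* at −0.65 and *Xdh* at −0.64, without a test. In counts per count of the 4 luminal genes, all libraries labelled KO were below all WT libraries for 6 of the 10 members, *Btn1a1*, *Xdh*, *Cidea*, *Mfge8*, *Muc15* and *Bsg*, against 24.5% of all genes. The ratios of *Plin2* to the luminal genes were 1.39, 1.52 and 1.21 in WT and 1.14, 1.34, 1.24 and 1.47 in KO 1 to KO 4, so its groups overlapped, as did those of *Plin3*, *Muc1* and *Cidec*. Per count of the milk protein genes, no member had all libraries labelled KO below WT, against 0.146% of all genes, and *Plin2* and *Plin3* had all above, against 58.5%. On that scale *Btn1a1* and *Cidea* differed by −0.56 and −0.53 in log2 with overlap, and *Xdh* and *Muc15* by 0.55 and 0.31. With TMM the 7 milk protein genes had log2 fold changes from −1.46 to −0.79. All 7 had the libraries labelled KO below WT, against 9.62% of all genes.

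**Figure D5:**
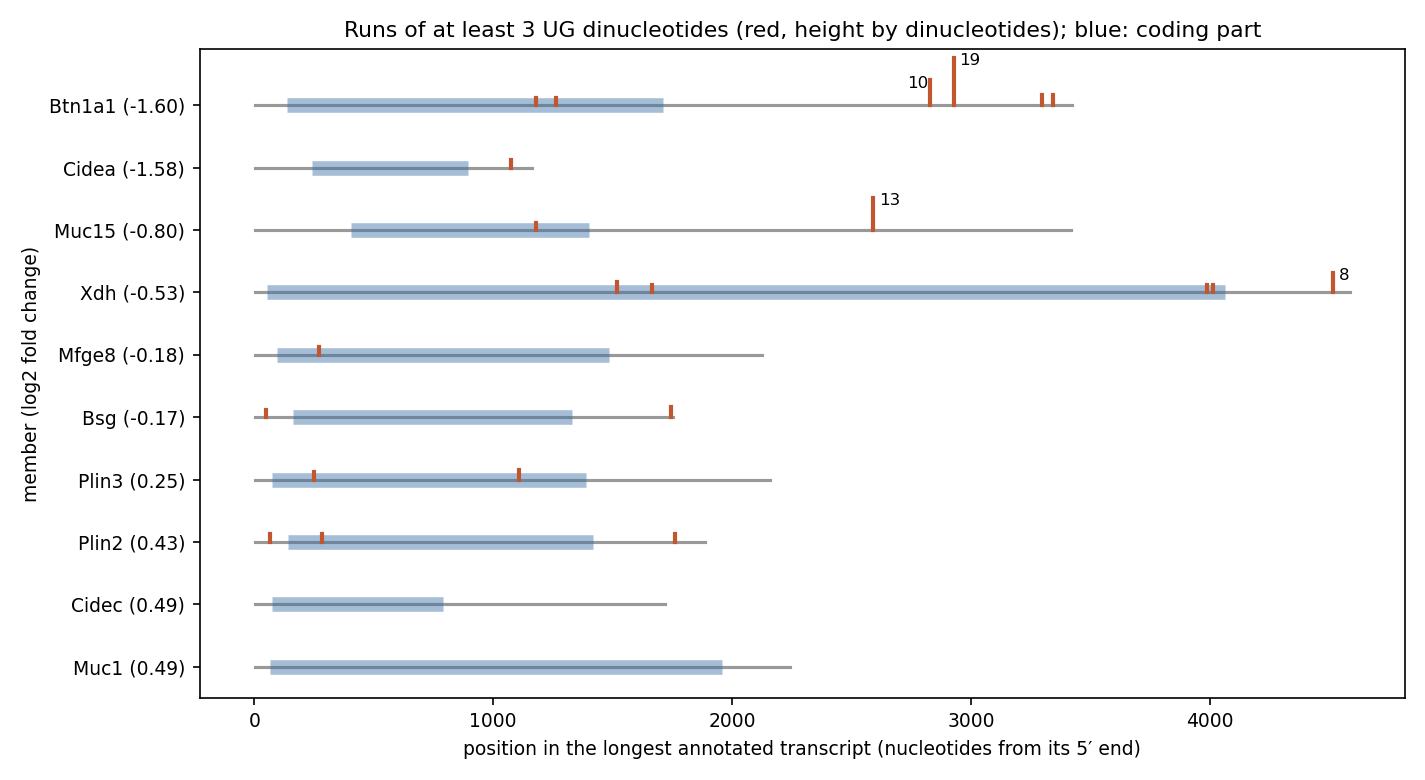
Runs of at least 3 UG dinucleotides (red ticks, height by the number of UG, labelled from 8 up) along the longest annotated transcript of each member in nucleotides from its 5′ end (x axis), with the coding part in blue and the log2 fold change beside the name. The long runs are those of *Btn1a1* (19 and 10), *Muc15* (13) and *Xdh* (8), all beyond the coding part, and *Cidea*, lowered like *Btn1a1*, has 1 run of 3.

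Set beside the fold changes, the members with a UG run of 8 or more, printed above, were *Btn1a1*, *Muc15* and *Xdh*, which are among the 4 with the lowest fold changes. *Cidea*, the other of those 4, held 1 run of 3 UG in its 3′ UTR and 0 of 4 or more. *Plin2* held 3 runs of 3, *Plin3* and *Bsg* held 2 runs of at most 4, *Mfge8* held 1 run of 3, and *Muc1* and *Cidec* held none. *Btn1a1* had 43 UG in 6 runs, *Xdh* 21 in 5 and *Muc15* 16 in 2. Over all 665 tested genes with a run of 8 or more, the median log2 fold change was 0.043, beside 0.049 for all 15112 genes, and 45.1% were below 0, beside 45.5%. Of the 444 genes with a run of 13 or more, 10.4% had all libraries labelled KO below all WT libraries, beside 10.1% of the 15112. The shares among genes with long UG runs were thus close to those over all genes, and these differences were not tested. These counts measure neither binding nor RNA decay. In separate experiments the study reported that TDP-43 bound UG-rich 3′ UTR parts of *Btn1a1* and *Xdh*, and that both mRNAs were less stable without it.

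Families of the members gave 14 further genes that were tested, of 18 listed, with 2 lower and 3 higher at an unadjusted p under 0.05, against 10.7% of all genes in each direction, and none called by the quasi-likelihood test. Among the butyrophilins, *Btn2a2*, which is known from antigen-presenting cells, had 16.0, 6.79 and 10.6 CPM in WT and 1.75, 3.54, 1.02 and 4.08 CPM in KO 1 to KO 4, a log2 fold change of −2.10 (SE 0.483, adjusted p = 0.0820, exact test 0.00213). *Btnl2*, 1 of the 3 higher genes, was at most 0.119 CPM in WT and 0.414 to 1.11 CPM in the libraries labelled KO. It passed the filter on low counts only through the libraries labelled KO, so no fold change or test is given for it. The count of 3 higher genes includes it and is not read further. *Btnl9* overlapped between the groups at a log2 fold change of 0.22. *Aox3*, an aldehyde oxidase related to *Xdh*, had 9.85, 5.87 and 5.95 CPM in WT and 1.35, 4.49, 2.44 and 3.41 CPM in KO 1 to KO 4 (log2 fold change −1.30, SE 0.397, adjusted p = 0.124). With the lymphocyte covariate *Btn2a2* was at −1.17 and *Aox3* at −0.65. *Emb*, a basigin relative, had a log2 fold change of 0.81 with overlapping groups (adjusted p = 0.183), and of 0.28 with luminal scaling. *Btnl1*, *Aox4*, *Muc13* and *Muc16* had at most 15 counts in any library and were not tested.

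Of 12 tested genes for droplet lipolysis and droplet growth, 3 were lower and 1 was higher at an unadjusted p under 0.05, against 10.7% of all genes in each direction. Their median log2 fold change was −0.26, beside 0.050 for all genes. *Rab18*, a small GTPase of the droplet surface, had 895, 353 and 570.4 CPM in WT and 133, 187, 120.1 and 182 CPM in KO 1 to KO 4. Its log2 fold change was −1.96 (SE 0.312, adjusted p = 0.0578, exact test 1.3e-06), larger than that of any member. *G0s2*, an inhibitor of the lipase encoded by *Pnpla2*, had 897, 488 and 1067 CPM in WT and 104, 162, 30.1 and 151 CPM in KO 1 to KO 4 (log2 fold change −2.87, SE 0.521, adjusted p = 0.0692, exact test 1.59e-05). *Pnpla2* itself overlapped between the groups at 0.51 (adjusted p = 0.403). *Mgll*, the monoacylglycerol lipase, was higher in all libraries labelled KO, at 0.54 (SE 0.194, adjusted p = 0.162), which was 0.030 when scaled by luminal genes. *Ldah*, a droplet-associated hydrolase, had a log2 fold change of −0.26 (SE 0.111, adjusted p = 0.215), and of 0.11 with library size only.

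Of 15 other genes whose proteins are found on the globule, 6 were lower and 1 was higher at an unadjusted p under 0.05, against 10.7% of all genes in each direction. Their median log2 fold change was −0.41, beside 0.050 for all genes. *Abcg2*, a transporter that concentrates riboflavin in milk, had 388, 190.2 and 315 CPM in WT and 77.1, 72.3, 51.0 and 91.6 CPM in KO 1 to KO 4 (log2 fold change −2.03, SE 0.272, adjusted p = 0.0517, exact test 1.34e-08). *Slc34a2*, a sodium-phosphate transporter, was at −2.30 (SE 0.519, adjusted p = 0.0806, exact test 0.000898) and *Folr1*, a folate receptor, at −1.02 (SE 0.202, adjusted p = 0.0714, exact test 0.000788), both without overlap between the groups. *Fabp3*, a carrier of fatty acids, was at −1.96 (SE 0.694, adjusted p = 0.158) and *Acsl1*, which activates fatty acids, at −0.98 (SE 0.369, adjusted p = 0.175), both with overlap. *Anxa1*, a membrane-binding protein, was the 1 with a higher level, at 0.93 (SE 0.160, adjusted p = 0.0642, exact test 0.000367), and *Cd36*, the fatty acid receptor of the globule membrane, was at −0.55 with overlapping groups (adjusted p = 0.239). The signs of *Rab18*, *G0s2*, *Abcg2*, *Slc34a2*, *Folr1*, *Fabp3*, *Acsl1* and *Anxa1* were kept with library size only, with luminal scaling and with the lymphocyte covariate, but not their sizes. With the lymphocyte covariate *Acsl1* was at −0.30, *Slc34a2* at −1.29 and *G0s2* at −1.90, with luminal scaling *Anxa1* was at 0.39, *Folr1* at −1.63 and *Acsl1* at −1.57, and with library size only *Folr1* was at −0.62 and *Acsl1* at −0.59.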

How the data were processed

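RNA-seq reads of 7 mammary gland libraries were mapped and counted by the authors, who deposited whole-number counts per gene without normalization. The file header names featureCounts 1.4.6-p5 with GENCODE vM1 exons and no option for strand, pairs or multimapping reads, and the submitters' processing notes name STAR 2.5.2a. Mates were therefore counted separately, and reads of several genes or places were not counted. The header names 1 more library, not analysed here.

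Symbols came from the same annotation. After leaving out 37 mitochondrial and 580 ribosomal genes, 17175 genes that reached 5 counts in 4 or more libraries were tested. Counts were scaled by TMM and tested with edgeR 4.0.16 (quasi-likelihood, Benjamini-Hochberg over all genes), with genotype as the only term. Alternatives were edgeR's exact test, DESeq2 1.42.0, limma-voom (limma 3.58.1), other scalings and filters, a lymphocyte covariate, lanes and omitted libraries. The code was tested on simulated data. Ratios within a library were compared by exact permutation of the 35 splits. CPM and CPM per kb of exon were computed from the deposited counts. Copies of the members were sought with minimap2 2.31-r1302.

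The 10 members, the lists and the tests were chosen with earlier results of these data known. Genes named outside the members are those of 3 related lists with an unadjusted p under 0.05, at most 6 per list by fold change, with *Plin1*, *Plin4*, *Plin5* and *Cideb*, and the 3 nearest profiles of *Btn1a1* and *Xdh*. *Pnpla2*, *Cd36*, *Btnl9* and the genes not tested were named after their values were seen.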

Additional observations from a re-analysis of the deposited data

Results flagged for a closer look

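Of 29 sets of 4 values from the libraries labelled KO that were examined for a library far from the others, 2 had one, and chance gives about 1 in 20. The ratio of *Btn1a1* to *Muc1* counts was 2.96, 2.87, 1.44 and 2.71 in KO 1 to KO 4, and the gap of KO 3 to the nearest took up 0.876 of the range. The ratio of *Cidec* to the 4 luminal genes was 0.144, 0.350, 0.153 and 0.147, and the gap of KO 2 took up 0.930 of the range.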

How the results depend on the processing

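Members called at the study's limits numbered 0 by the quasi-likelihood test under all scalings, filters, thresholds and omitted libraries, and 2 by edgeR's exact test and 2 by DESeq2. *Btn1a1*, *Xdh*, *Cidea* and *Muc15* kept their sign in every alternative fit and within lane 4. Per count of the milk protein genes, *Xdh* and *Muc15* were above 0, at 0.55 and 0.31 on the log2 scale. The median of the members was 0.17 with library size only, −0.74 scaled by luminal genes and 0.30 with the lymphocyte covariate, and −0.33 to −0.06 with each library left out. Signs turned for *Mfge8* and *Bsg* with library size only (0.16 and 0.18) and with the lymphocyte covariate (0.42 and 0.19), and for *Plin2*, *Plin3*, *Muc1* and *Cidec* with luminal scaling (−0.078, −0.31, −0.037 and −0.038). The cause was not tested. *Plin3* was −0.0081 without KO 4, where the range without each library was −0.0081 to 0.35. Members apart from WT in their ratio to the luminal genes numbered 6, and 2 with milk protein genes as the reference. Without each library in turn they were 6 to 7. Members at the smallest permutation p numbered 1 on log2 CPM and 3 on CPM, and those with a UG run 8, or 5 for runs of at least 4.

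The labels number replicates in both groups, but nothing ties the same number to a shared mouse, litter or day, and correlations of same-numbered libraries were 0.437, 0.0744 and −0.0836, so the numbers were not taken as pairs. With the number as a replicate block over replicates 1 to 3, 0 members were called, the median was −0.36, and *Btn1a1* was at −1.91 (adjusted p = 0.0384) and *Cidea* at −1.96 (0.0360) in edgeR. Without the block on the same 6 libraries, an alternative added after seeing the data, they were −1.84 (0.0599) and −1.94 (0.0485), and *Plin3* was −0.0081. Depth limits none of the members, which had at least 2287 counts in each library.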
